A study of Drosophila melanogaster with 36 samples.

Results

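The genes described here encode the proteins of the cytosolic ribosome of Drosophila melanogaster. They were chosen by symbol, as every gene whose FlyBase ID maps to a name that begins with RpL or RpS followed by a digit or a P, which gave 92 of the 17807 genes counted. By their symbols 69 of them are single-copy genes, 18 form 9 pairs of duplicated copies (a and b, or -1 and -2) and 5 carry the suffix -like. The mitochondrial ribosomal proteins have other symbols and are not included. The genes were measured by RNA-seq in cells sorted from imaginal discs, the larval epithelia that form the adult wing and the haltere, a small balancing organ.

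The 4 groups have 2 libraries each. Haltere nub and wing nub cells came from yw;nub.gal4;uas-kash.GFP larvae and haltere tsh and wing tsh cells from yw;tsh.gal4;uas-kash.GFP larvae, all wandering third-instar larvae raised at 25 °C. All groups therefore share the yw background and a GFP on the nuclear envelope, and differ in the disc and in the Gal4 driver that marks the sorted cells: nub for the distal pouch region, tsh for the proximal region. Domain and driver line cannot be told apart, and the labels do not say whether the replicates came from separate cohorts, and each p-value therefore reflects only how far these libraries vary, which may be technical variation. The driver genes followed the labels, with nub at 1036 and 1041 CPM (counts scaled to a common library size) in haltere nub, 10.5 and 10.3 in haltere tsh, 1651 and 1587 in wing nub and 38.7 and 36.1 in wing tsh. tsh had 29.5 and 23.4 CPM in haltere nub, 898 and 839 in haltere tsh, 19.0 and 11.9 in wing nub and 690 and 764 in wing tsh. Between the nub groups tsh was called higher in haltere nub than in wing nub (log2 fold change 0.78 ± 0.19, adjusted p = 0.0194 by edgeR). That call was lost without haltere nub replicate 1 (0.109), wing nub replicate 2 (0.0746), wing tsh replicate 1 (0.081) or wing tsh replicate 2 (0.072), and its part in the results below was not tested. Ubx, the Hox gene that sets haltere identity, had 2738 and 2753 CPM in haltere nub and 769 and 818 in haltere tsh, against 2.05 and 6.94 in wing nub and 37.0 and 37.1 in wing tsh.

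A cytosolic ribosome joins a small subunit (RpS proteins) that decodes the messenger RNA to a large subunit (RpL proteins) that makes the peptide bond, and an acidic stalk (RpLP0, RpLP1 and RpLP2) that recruits elongation factors. Most of the proteins are needed in equal numbers, and the genes are usually expressed at high and coordinated levels. Flies with 1 working copy of many of these genes show the Minute phenotype of slow growth and thin bristles. In growing imaginal discs, Minute cells are eliminated when they lie beside normal cells.

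Ribosomal protein genes took the smallest share of the counts in haltere nub cells. The share was 3.15% and 3.11% of all counts in the haltere nub libraries, 4.49% and 4.24% in haltere tsh, 4.41% and 4.58% in wing nub and 3.94% and 4.49% in wing tsh. Both haltere nub libraries lay below every other library, and the other 3 groups overlapped. Depth moved with the same group: the haltere nub libraries held 96525031 and 92342738 counts, and the other 6 held between 15110163 and 17705451. In bulk samples fewer cells with these transcripts and less of the RNA per cell cannot be told apart.

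**Figure D1:**
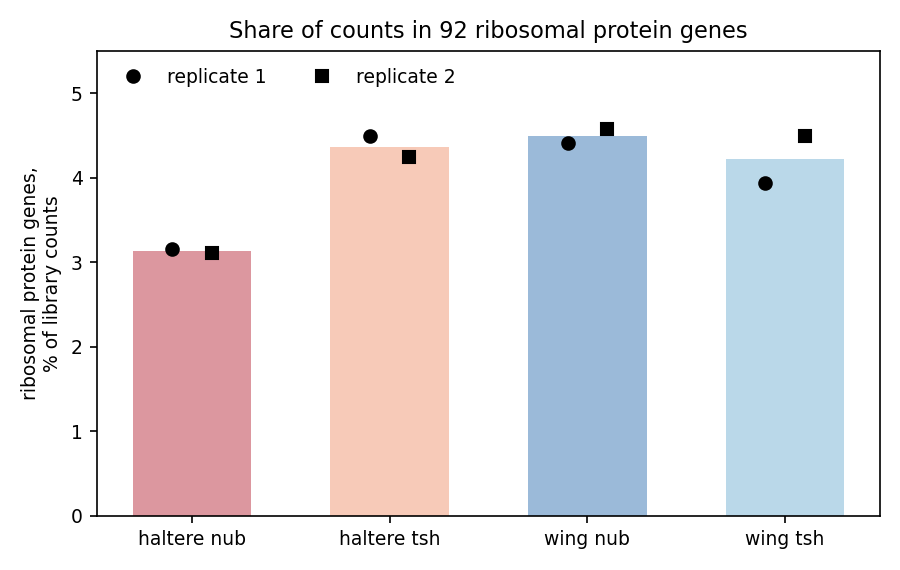
Counts of the 92 ribosomal protein genes as a percentage of all counts in a library (vertical axis) for the 4 groups; bars are means and points are the 2 libraries of each group. The haltere nub libraries, at 3.15% and 3.11%, lie below the other 6, which run from 3.94% to 4.58%.

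Of the 92 genes, 86 passed the filter on low counts and were tested. The other 6, RpL10Aa, RpL37-2, RpS10a, RpS28a, RpL7-like and RpS28-like, had few or no counts and are described with the copies. The test was edgeR's quasi-likelihood test over all 8 libraries and 11198 genes, and a gene was called at an adjusted p (Benjamini-Hochberg) under 0.05.

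In haltere nub cells most ribosomal protein genes had fallen relative to wing nub cells, and by similar amounts. Of 86 genes tested, 64 were called lower and none higher, while 23.3% of all genes were called, 13.6% lower and 9.72% higher. The median log2 fold change was -0.57 for the ribosomal protein genes and -0.01 for all genes tested. All 69 single-copy genes had a negative fold change as tested, except that RpL35 turned positive (at most 0.04) under upper quartile scaling, under a filter of 5 CPM, with the trends on gene span and level removed, and without haltere nub replicate 2. The quartiles of the single-copy genes were -0.64 and -0.44, around a median of -0.55, or 0.685 times the wing nub level. In 83 of the 86 genes both haltere nub libraries lay below both wing nub libraries, which was so for 35.7% of all genes tested.

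RpS21 (FBgn0015521, chromosome 2L, 2856070 to 2857029 in the Release 6 assembly), a protein of the small subunit, showed the largest fold change of the called single-copy genes. It had 149.3 and 147.3 CPM in haltere nub, 339.9 and 311.4 in haltere tsh, 315.9 and 340.4 in wing nub and 252.8 and 340.4 in wing tsh. The haltere nub libraries were the lowest and stood apart from all others, and the change against wing nub was -1.15 ± 0.12 on the log2 scale (SE, adjusted p = 9.62e-05).

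RpLP2 (FBgn0003274, chromosome 2R, 16586129 to 16586732), an acidic protein of the stalk, had 470.5 and 493.2 CPM in haltere nub, 807.2 and 815.5 in haltere tsh, 898 and 941 in wing nub and 666.2 and 771.1 in wing tsh. No group overlapped another, with haltere nub lowest and wing nub highest. The haltere nub against wing nub change was -0.93 ± 0.09 (adjusted p = 4.04e-05). RpS2, the small-subunit protein encoded by the string of pearls locus, had 317.6 and 306.6 CPM in haltere nub against 593 and 599.4 in wing nub (log2 fold change -0.93 ± 0.11, adjusted p = 0.000123).

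The other genes among the 10 with the largest change were RpL13 (-0.82 ± 0.11), RpL23A (-0.80 ± 0.10), RpL27 (-0.72 ± 0.11), RpL7A (-0.72 ± 0.11), RpS3A (-0.70 ± 0.09), RpS12 (-0.70 ± 0.11) and RpL11 (-0.69 ± 0.11), with adjusted p-values of at most 0.00122. RpL23A sits at the exit of the tunnel through which the new peptide leaves, RpL11 belongs to the particle that carries the 5S RNA into the large subunit, and RpS12 is required in Drosophila for the loss of Minute cells. RpS3A is the one ribosomal protein gene on chromosome 4. The calls of all 10 held when any 1 of the 8 libraries was left out. The other 44 called single-copy genes lay between -0.69 and -0.38.

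The fall covered both subunits. In haltere nub against wing nub, 30 of 41 large-subunit single-copy genes were called lower (median -0.52), 22 of 25 small-subunit genes (median -0.58) and 2 of 3 stalk genes, RpLP1 being the exception. X-linked single-copy genes had 4 of 6 called lower with a median of -0.55, and autosomal ones 50 of 63 with a median of -0.55. Among the 15 single-copy genes that were not called were RpL26, RpL29, RpL30, RpL31, RpL35, RpL36, RpL37A, RpL38, RpL39, RpL40, RpL41, RpLP1, RpS16 and RpS30, and the 15 had values between -0.47 and -0.08.

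**Figure D2:**
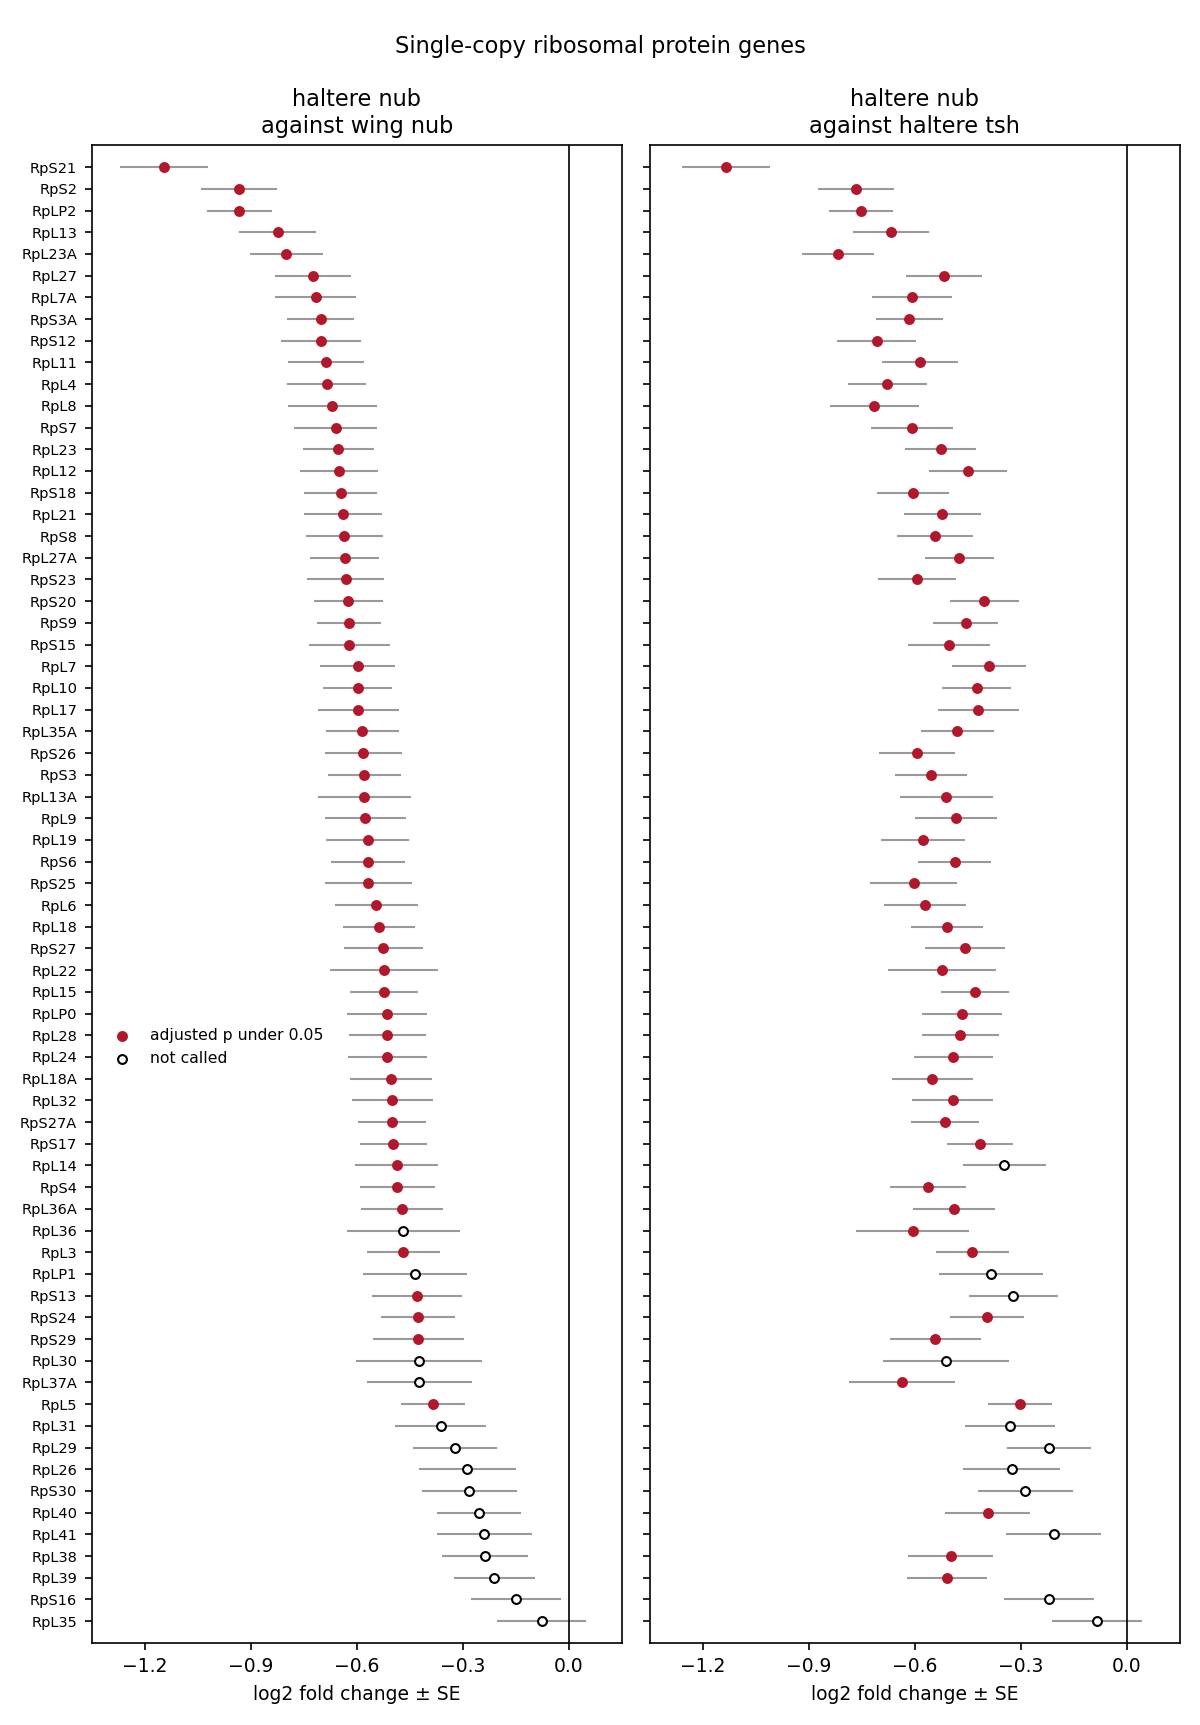
Log2 fold change ± SE (horizontal axis) of 68 of the 69 single-copy genes in haltere nub against wing nub (left) and against haltere tsh (right), in the order of the left panel; filled points have an adjusted p under 0.05. RpS21 is the lowest in both panels, at -1.15 and -1.13, and RpL35 the nearest to 0, at -0.08 in both.

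Against proximal cells of the same disc, haltere nub cells were lower for a similar number of ribosomal protein genes. In haltere nub against haltere tsh, 65 of 86 were called lower and none higher, while 24.9% of all genes were called, 15% lower and 9.96% higher. The median log2 fold change was -0.50 for the ribosomal protein genes and -0.01 for all genes. The single-copy genes had 57 of 69 called lower, with quartiles of -0.58 and -0.42. All 69 were negative as tested. RpL35 turned positive (at most 0.04) under upper quartile scaling, without haltere nub replicate 2 and with the span and level trends removed, where 67 of the 69 were negative. In 82 of the 86 genes both haltere nub libraries lay below both haltere tsh libraries, which was so for 35% of all genes. These values use the same 2 haltere nub libraries as the comparison with wing nub, so the comparisons are not independent.

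The 10 single-copy genes with the largest change were RpS21 (-1.13 ± 0.12, adjusted p = 5.81e-05), RpL23A (-0.82 ± 0.10), RpS2 (-0.77 ± 0.11), RpLP2 (-0.75 ± 0.09), RpL8 (-0.71 ± 0.13), RpS12 (-0.71 ± 0.11), RpL4 (-0.68 ± 0.11), RpL13 (-0.67 ± 0.11), RpL37A (-0.64 ± 0.15) and RpS3A (-0.62 ± 0.09). RpL8 had 350.6 and 343.9 CPM in haltere nub against 592.3 and 546.6 in haltere tsh, and RpL4, whose protein lines the exit tunnel, had 479.2 and 505.7 against 823.2 and 751.8. The groups did not overlap for either gene. RpL37A had 120.9 and 127 CPM in haltere nub against 197.1 and 188.1 in haltere tsh, and its call was lost without haltere nub replicate 1 (adjusted p = 0.0862), haltere nub replicate 2 (0.0639) or haltere tsh replicate 1 (0.0844). The other 9 kept their calls without any 1 library.

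Among the 12 single-copy genes not called against haltere tsh were RpL14, RpL26, RpL29, RpL30, RpL31, RpL35, RpL41, RpLP1, RpS13, RpS16 and RpS30, and the 12 had values between -0.51 and -0.08. RpL39, a short protein of the exit tunnel, had a log2 fold change of -0.51 ± 0.11 against haltere tsh (adjusted p = 0.00701) and of -0.21 ± 0.11 against wing nub (adjusted p = 0.211). RpL38 had one of -0.50 ± 0.12 against haltere tsh (adjusted p = 0.0114) and of -0.24 ± 0.12 against wing nub (adjusted p = 0.188). Whether these changes differ between the comparisons was not tested. RpL39 lost its call against haltere tsh without haltere nub replicate 1 (adjusted p = 0.0832) or haltere tsh replicate 1 (0.0704). RpL38 lost its call without haltere nub replicate 1 (0.0746), haltere nub replicate 2 (0.0793) or haltere tsh replicate 1 (0.12).

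When a library was left out, the number of all genes called moved in both haltere nub comparisons. For the ribosomal protein genes, leaving out a library moved the count of calls in haltere nub against haltere tsh more than its median. The count was 30 without haltere nub replicate 1, 39 without haltere nub replicate 2 and 27 without haltere tsh replicate 1, while the median stayed between -0.54 and -0.46 over the 8 fits. Of the 65 called genes, 24 were called in every one of the 8 fits. In haltere nub against wing nub, 42 of the 64 were, and the count ran from 44 to 78.

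The depth of the haltere nub libraries and their group cannot be told apart by design. With every library thinned to the smallest total, all 64 genes called against wing nub and all 65 called against haltere tsh were called again. Other short, abundant genes also moved. The 570 genes of at least 50 CPM with a span under 3 kb exclude the ribosomal protein genes. They had a median of -0.21 in haltere nub against wing nub, with 35.3% called lower. Against haltere tsh their median was -0.22, with 40% called lower. With the trend on gene span removed per library the counts were 62 against wing nub and 65 against haltere tsh, and the medians -0.52 and -0.48. With the trends on both span and level removed, a setting added after the data were seen, the counts were 63 and 64. The medians were then -0.44 against wing nub, with -0.11 for all genes, and -0.38 against haltere tsh, with -0.08 for all genes.

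Between proximal cells of the 2 discs no ribosomal protein gene was called. In haltere tsh against wing tsh none of 86 was called by edgeR in either direction, with 3 at an unadjusted p under 0.05 and none by DESeq2, while 3.26% of all genes were called, 2.22% lower and 1.04% higher. The median was 0.03 for the ribosomal protein genes and -0.03 for all genes. The 3 single-copy genes with the smallest p were RpL39 (0.35 ± 0.12, adjusted p = 0.148), RpL38 (0.29 ± 0.12, adjusted p = 0.249) and RpLP2 (0.17 ± 0.09, adjusted p = 0.337).

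These values rest on the wing tsh libraries, which differed from each other. The number of all genes called also moved when either was left out. In 83 of the 86 genes wing tsh replicate 1 lay below replicate 2, with a median log2 difference of -0.34. In the other groups replicate 1 lay below replicate 2 in 45 (haltere nub), 20 (haltere tsh) and 52 (wing nub) of the 86. Without wing tsh replicate 1 the median of haltere tsh against wing tsh was -0.13 with no gene called, and without wing tsh replicate 2 it was 0.23 with 20 genes called, all higher. Wing tsh replicate 1 also had 5186 genes at 1 to 5 CPM, against 1822 to 2312 in the other libraries.

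Fat body and hemocyte markers had their highest levels in the same library. The summed level of 7 fat body genes was 57.8 CPM in wing tsh replicate 1 and 20.0 in replicate 2, and between 3.78 and 6.40 in the other 6 libraries. The 6 hemocyte genes summed to 31.2 CPM in wing tsh replicate 1 and 4.62 in replicate 2, and between 2.00 and 9.76 elsewhere. The fat body markers Lsp1alpha and Lsp2 stood at 0 in wing tsh replicate 2. The 7 myoblast genes summed to 228 to 232 CPM in haltere nub, 139 to 143 in haltere tsh, 170 to 172 in wing nub and 208 to 238 in wing tsh. That sum rests on Mef2 and kirre, and the single genes moved otherwise: in haltere nub against haltere tsh 4 of the 7 were called lower and 1 higher (median -1.95), and in haltere tsh against wing tsh 5 were called lower (median -1.54). In haltere nub against wing nub kirre was called higher and none lower (median -0.54), and in wing nub against wing tsh 5 were called lower and 1 higher (median -2.93). The shares of all genes called were 15% lower and 9.96% higher in haltere nub against haltere tsh. In haltere tsh against wing tsh they were 2.22% and 1.04%, and in haltere nub against wing nub 13.6% and 9.72%. In wing nub against wing tsh they were 7.88% and 5.96%. The 5 tracheal genes summed to 849 to 918 CPM in haltere nub, 1736 to 1765 in haltere tsh, 1080 to 1082 in wing nub and 1569 to 1727 in wing tsh. The 6 germline genes summed to 615 to 644 CPM in haltere nub, 670 to 722 in haltere tsh, 876 to 899 in wing nub and 646 to 659 in wing tsh, nearly all of it ovo. As that sum rests nearly all on ovo, it does not show whether germline cells were present. The part of other cells in the ribosomal protein values was not tested.

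Within the wing disc few ribosomal protein genes were called between distal and proximal cells. Of 86 tested, 3 were called higher in distal cells and none lower, a smaller share in each direction than of all genes. In wing nub against wing tsh 13.8% of all genes were called, 7.88% lower and 5.96% higher. The median was 0.09 for the ribosomal protein genes and -0.01 for all genes. The number of all genes called also moved when 1 library was left out. The single-copy gene was RpLP2 (0.36 ± 0.09, adjusted p = 0.0235), and the other calls were RpL24-like and RpLP0-like, described below. The call of RpLP2 was lost without any library but wing tsh replicate 2, with adjusted p-values from 0.0501 (without wing tsh replicate 1) to 0.125 (without wing nub replicate 2). Without wing nub replicate 1 no gene was called, and without wing nub replicate 2 there was 1. Without wing tsh replicate 2 the count was 47, all higher, with a median of 0.27. Without wing tsh replicate 1 it was 3, all lower, with a median of -0.08.

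The change between the discs was more negative in distal than in proximal cells for most ribosomal protein genes. This was tested as an interaction, the haltere nub against wing nub change minus the haltere tsh against wing tsh change. By edgeR 54 of 86 genes were called with a negative interaction and none with a positive one. Of all genes 15.4% were called, 8.1% negative and 7.32% positive. The median was -0.56 for the ribosomal protein genes and 0.01 for all genes. The value, called or not, was negative for 85 of the 86 and for all 69 single-copy genes. Other short, abundant genes also moved. Of the 570 other genes of at least 50 CPM with a span under 3 kb, 138 (24.2%) were called negative and 13 positive. Their median was -0.26. With the span and level trends removed, the median was -0.48 for the ribosomal protein genes and -0.15 for all genes. That setting was added after the data were seen. The 10 single-copy genes with the largest interaction were RpS21 (-1.28 ± 0.17, adjusted p = 0.00108), RpLP2 (-1.11 ± 0.13, adjusted p = 0.000315), RpL23A (-0.96 ± 0.14), RpS2 (-0.94 ± 0.15), RpL13 (-0.83 ± 0.15), RpS12 (-0.82 ± 0.16), RpL35A (-0.78 ± 0.15), RpL27 (-0.76 ± 0.15), RpL7A (-0.76 ± 0.16) and RpS3A (-0.76 ± 0.13). The calls of 8 of these held without any 1 library. RpL27 lost its call without haltere tsh replicate 1 (adjusted p = 0.0524), and RpL7A without haltere nub replicate 1 (0.0634) or haltere tsh replicate 1 (0.057).

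Over all genes tested, the number with a called interaction also moved when a library was left out. The count of ribosomal protein genes with a called interaction depended on single libraries. It was 12 without haltere nub replicate 1, 16 without haltere nub replicate 2, 12 without haltere tsh replicate 1, 29 without haltere tsh replicate 2, 23 without wing nub replicate 1 and 22 without wing nub replicate 2. It was 53 without wing tsh replicate 1 and 82 without wing tsh replicate 2. The median ran from -0.75 to -0.42 over these 8 fits, and 9 genes were called in all of them.

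**Figure D3:**
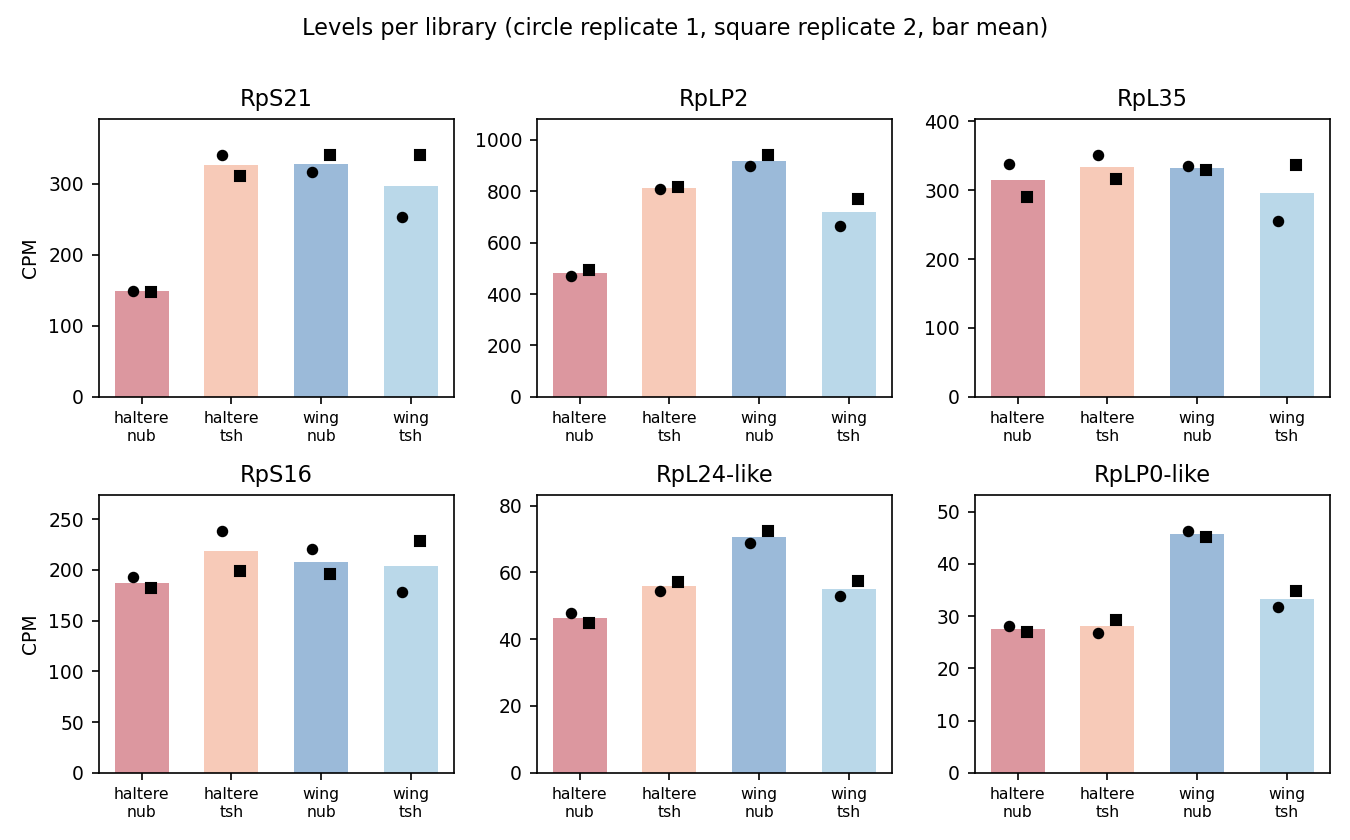
CPM (vertical axis, from 0) of 6 ribosomal protein genes in each library, with replicate 1 as a circle, replicate 2 as a square and the mean as a bar. RpS21 and RpLP2 are lowest in haltere nub, RpL35 and RpS16 vary least of the 6, and RpL24-like and RpLP0-like are highest in wing nub.

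Among the single-copy genes, the 5 with the smallest range of group means included RpL35, RpS16, RpL41 and RpS30. RpL35 (FBgn0029785), a protein at the exit of the tunnel, had 338.4 and 290.5 CPM in haltere nub, 351 and 315.6 in haltere tsh, 334.8 and 328.8 in wing nub and 255.1 and 335.9 in wing tsh, and the groups overlapped. RpS16, a small-subunit protein whose gene span holds 5 snoRNA genes, had 192.5 and 182.3 CPM in haltere nub, 238.3 and 198.6 in haltere tsh, 220.4 and 195.8 in wing nub and 177.7 and 228.9 in wing tsh. Its groups overlapped except that haltere nub lay below wing nub and haltere tsh (haltere nub against wing nub -0.15 ± 0.13, adjusted p = 0.435). RpS30 had a log2 fold change of -0.28 ± 0.13 in haltere nub against wing nub (adjusted p = 0.162).

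RpL41, the shortest of these proteins, was also the most abundant per length. Levels were set per kb of gene span, introns included, because transcript lengths were not used here. RpL41 had 2894 CPM per kb of span, RpLP2 1213 and RpL23 780, and the lowest single-copy genes were RpL38 (85.2), RpS16 (90.8) and RpL30 (108.8). RpL41 had 1362 and 1372 CPM in haltere nub, 1667 and 1488 in haltere tsh, 1704 and 1524 in wing nub and 1234 and 1686 in wing tsh. Its change in haltere nub against wing nub was -0.24 ± 0.13 (adjusted p = 0.23), while RpL23 changed by -0.65 ± 0.10 (adjusted p = 0.000968). RpL30 had 107.4 and 108.7 CPM in haltere nub against 153.3 and 136.6 in wing nub, with a change of -0.42 ± 0.18 that was not called (adjusted p = 0.128).

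Each of the 9 duplicated genes had 1 copy that gave most of the counts in every library. The higher copy was X-linked in 7 of the 9 pairs, and in 6 of these the lower copy was autosomal. The lower copy had the shorter span in all 9. In 6 pairs it gave under 1% of the pair's counts in every library, and in the other 3 pairs (RpL34, RpS14 and RpS15A) it gave more than 1% in every library. Several of the minor copies are known in Drosophila from the germline, RpS5b and RpS19b among them.

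**Figure D4:**
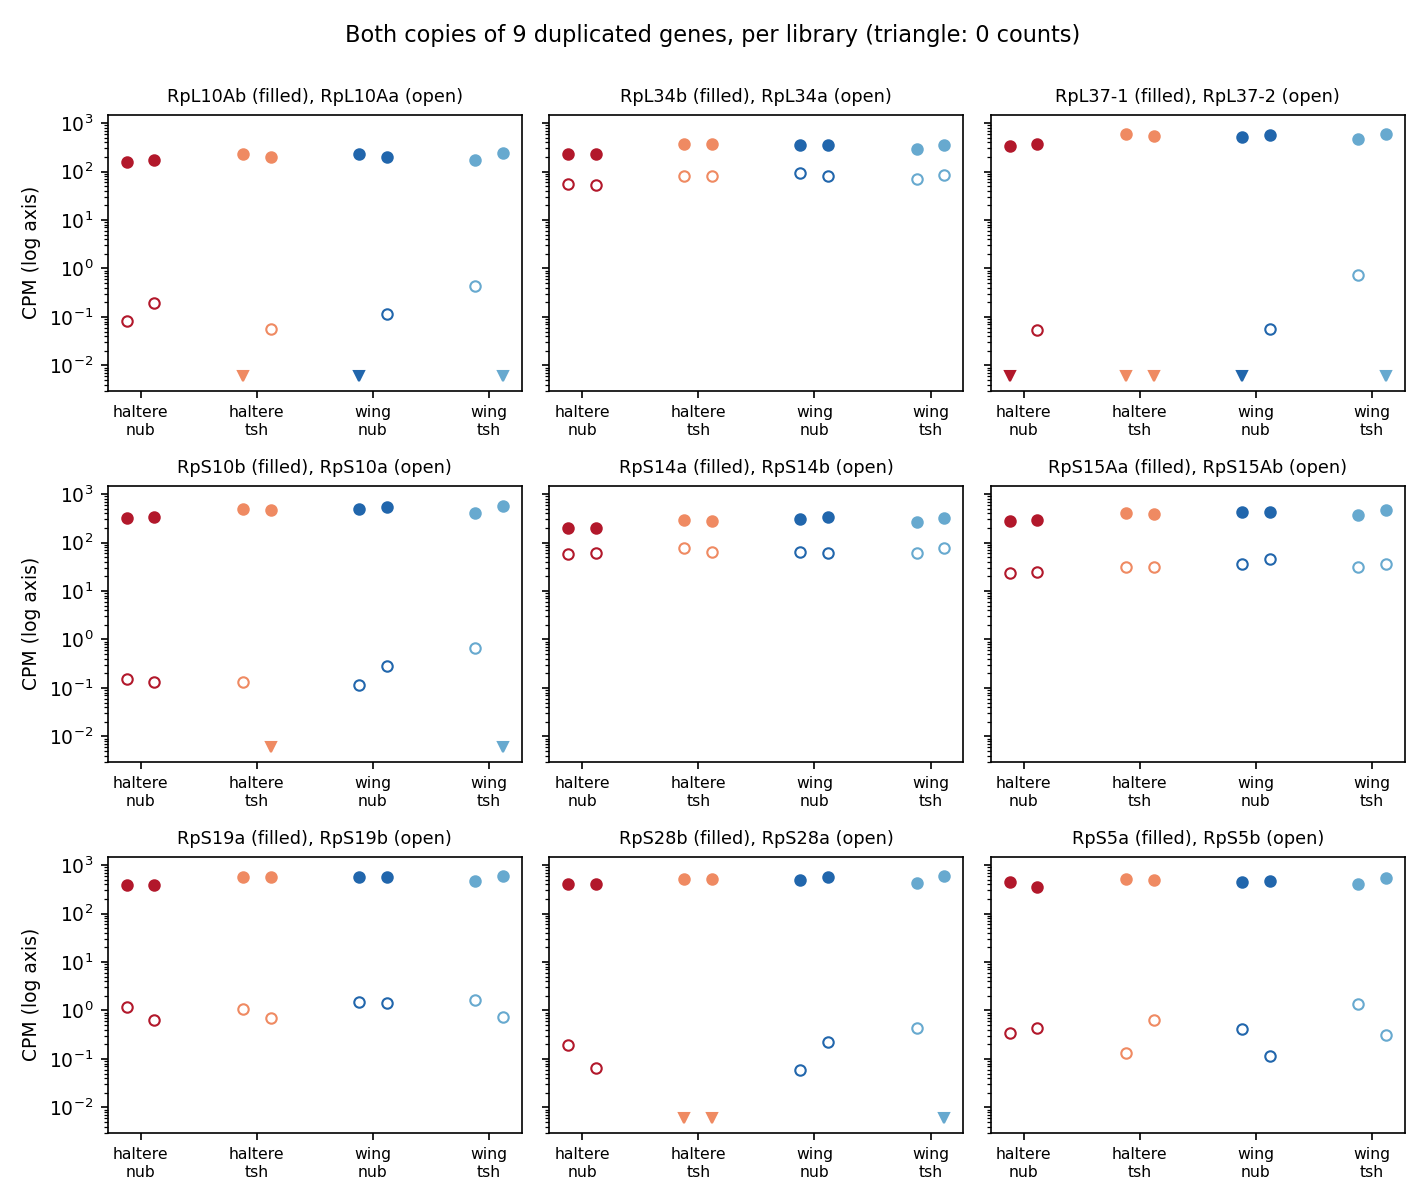
CPM on a log axis of the higher copy (filled) and lower copy (open) of 9 duplicated ribosomal protein genes in each library of the 4 groups; triangles mark 0 counts. In 6 pairs the lower copy stays under 1% of the pair in every library, and in RpL34, RpS14 and RpS15A it runs from 6.96% to 24.0%.

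Of the 9 higher copies 6 fell in haltere nub cells. RpL34b, RpL37-1, RpS10b, RpS14a, RpS15Aa and RpS19a were called lower in haltere nub against wing nub, with log2 fold changes from -0.67 to -0.56. RpS19a had 383.9 and 395.7 CPM in haltere nub against 578.9 and 570.9 in wing nub (-0.56 ± 0.10, adjusted p = 0.00311). RpL37-1 (-0.62 ± 0.12) lost its call without haltere nub replicate 1 (adjusted p = 0.058), and so did RpS10b (-0.66 ± 0.13, adjusted p = 0.055). RpL10Ab (-0.37 ± 0.14, adjusted p = 0.0822), RpS28b (-0.36 ± 0.13, adjusted p = 0.0655) and RpS5a (-0.24 ± 0.14, adjusted p = 0.259) were not called. The span of RpS5a holds 14 snoRNA genes, and its haltere nub libraries, at 438.5 and 348.7 CPM, lay below both wing nub libraries, at 450.1 and 477.6.

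Against haltere tsh the same 6 higher copies were called lower, with changes from -0.68 to -0.49. RpS15Aa lost its call without haltere nub replicate 1 (adjusted p = 0.0665) or haltere tsh replicate 1 (0.0768), and RpS10b without haltere nub replicate 1 (0.0805) or haltere tsh replicate 1 (0.0708). The 2 called minor copies were RpL34a and RpS15Ab in both comparisons. Duplicated genes thus had 8 of 14 tested called lower against wing nub and 8 of 14 against haltere tsh, and none of the 14 was called in either of the comparisons with wing tsh.

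In the RpL34 pair both copies, which lie far apart on chromosome 3R, fell by similar amounts. RpL34a had 56.5 and 52.5 CPM in haltere nub against 93.8 and 80.2 in wing nub (-0.67 ± 0.11, adjusted p = 0.00125), and RpL34b had 230.7 and 232.4 against 348.4 and 349.7 (-0.59 ± 0.10, adjusted p = 0.00135). RpL34a gave 17.7% to 21.2% of the pair's counts over the 8 libraries. In the RpS15A pair the minor copy RpS15Ab had 23.0 and 24.2 CPM in haltere nub, 31.0 and 32.0 in haltere tsh, 36.1 and 45.6 in wing nub and 31.4 and 36.7 in wing tsh. RpS15Ab changed by -0.79 ± 0.12 against wing nub (adjusted p = 0.00108) and by -0.42 ± 0.13 against haltere tsh (adjusted p = 0.0321). The call against haltere tsh was lost without either haltere nub replicate (adjusted p = 0.171 without replicate 1 and 0.11 without replicate 2) and without either haltere tsh replicate (0.118 without replicate 1 and 0.136 without replicate 2).

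RpS14a and RpS14b, tandem copies on the X chromosome with 220 bases between them, were called differently. RpS14a (7933742 to 7934677) had 200.8 and 195.8 CPM in haltere nub, 287.1 and 283.1 in haltere tsh, 303.5 and 329.7 in wing nub and 260.7 and 320.4 in wing tsh. RpS14b (7934898 to 7935792) had 58.7 and 61.8 CPM in haltere nub, 77.4 and 64.0 in haltere tsh, 64.7 and 62.2 in wing nub and 60.0 and 78.4 in wing tsh. The log2 fold change of haltere nub against wing nub was -0.67 ± 0.10 for RpS14a (adjusted p = 0.000796) and -0.07 ± 0.13 for RpS14b (adjusted p = 0.725). Against haltere tsh it was -0.52 ± 0.10 for RpS14a (adjusted p = 0.00297) and -0.23 ± 0.13 for RpS14b (adjusted p = 0.225).

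RpS14b gave 22.6% and 24.0% of the pair's counts in haltere nub, 21.2% and 18.4% in haltere tsh, 17.6% and 15.9% in wing nub and 18.7% and 19.6% in wing tsh. The haltere nub libraries had the highest shares. The log2 ratio of RpS14b to RpS14a was 0.33 higher in the 4 haltere than in the 4 wing libraries (exact permutation test, two-sided, p = 0.0857, adjusted p = 0.557 over 26 tests). The copies are near-identical in coding sequence, and how reads matching both were counted is not given in the sources used here, so the split between them is uncertain.

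The minor copies of the other 6 pairs were near the limit of detection. RpS19b had 1.20 and 0.63 CPM in haltere nub, 1.05 and 0.69 in haltere tsh, 1.47 and 1.41 in wing nub and 1.66 and 0.75 in wing tsh, while RpS19a had at least 383.9 CPM in every library. RpS5b had 33 and 40 raw counts in haltere nub, 2 and 11 in haltere tsh, 7 and 2 in wing nub and 22 and 5 in wing tsh. The haltere nub libraries were the deepest, so these unscaled counts do not rank the groups. RpS19b and RpS5b passed the filter and neither was called in any comparison. RpL10Aa had 36 counts over all 8 libraries, RpL37-2 had 18, RpS10a 47 and RpS28a 37, and each stood at 0 in at least 1 library of haltere tsh and of wing tsh. A count of 0 allows up to 3 counts, or 0.199 and 0.171 CPM in the haltere tsh libraries, by counting error alone.

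Wing tsh replicate 1 held the most of these transcripts for its depth. The 9 least abundant members (the 6 minor copies, RpL22-like, RpL7-like and RpS28-like) summed to 8.23 CPM there and to between 1.86 and 3.16 CPM in the other libraries. All 9 had counts in that library. The same library had 5186 genes at 1 to 5 CPM, against 1822 to 2312 in the other libraries. It also had the higher fat body and hemocyte levels given above. The part of either in these counts was not tested.

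RpL24-like and RpLP0-like are named after RpL24 and RpLP0, but their counterparts in yeast, Rlp24 and Mrt4, act in the assembly of the large subunit and are not part of the mature ribosome. Both had their highest levels in wing nub. RpLP0-like (FBgn0033485) had 28.0 and 27.0 CPM in haltere nub, 26.8 and 29.2 in haltere tsh, 46.3 and 45.1 in wing nub and 31.7 and 34.8 in wing tsh. The wing nub libraries were the highest and the 2 haltere groups overlapped. The log2 fold change of RpLP0-like was -0.73 ± 0.10 in haltere nub against wing nub (adjusted p = 0.000366), -0.03 ± 0.10 against haltere tsh (adjusted p = 0.873) and 0.46 ± 0.10 in wing nub against wing tsh (adjusted p = 0.0103).

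RpL24-like had 47.9 and 45.0 CPM in haltere nub, 54.5 and 57.1 in haltere tsh, 68.8 and 72.4 in wing nub and 52.8 and 57.3 in wing tsh. Its log2 fold change was -0.60 ± 0.09 in haltere nub against wing nub (adjusted p = 0.000721), -0.26 ± 0.09 against haltere tsh (adjusted p = 0.051) and 0.36 ± 0.09 in wing nub against wing tsh (adjusted p = 0.0221). In wing nub against wing tsh, RpL24-like lost its call without wing nub replicate 1 (adjusted p = 0.0628), wing nub replicate 2 (0.115) or wing tsh replicate 1 (0.0835), and RpLP0-like without wing nub replicate 1 (0.0636) or wing tsh replicate 1 (0.0526).

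The ratio of each gene to its namesake was compared directly, since a ratio within a library needs no scaling between libraries. RpLP0-like over RpLP0 was 0.42 higher on the log2 scale in the 4 nub than in the 4 tsh libraries, and RpL24-like over RpL24 was 0.27 higher. For both, no nub library overlapped a tsh library, and the exact permutation test (two-sided) gave p = 0.0286, the smallest that 70 arrangements allow. Over 26 tests the adjusted p was 0.371 for each. At least 15 of the 26 would have to reach that smallest p for any to pass, and 10 of the tests are on pairs with a copy left out by the filter, so that no copy ratio passed says nothing about whether the ratios differ. RpL22-like, known in Drosophila as a testis paralog of RpL22, had between 3 and 38 counts a library and was not called in any comparison. RpL7-like had 2 counts in wing nub replicate 2, 1 in wing tsh replicate 1 and none elsewhere, and RpS28-like had 14 counts or fewer in every library.

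The ribosomal proteins whose symbols fall outside the rule moved the same way. sta, the RpSA protein of the small subunit, had 650.7 and 653.4 CPM in haltere nub, 966.6 and 957.8 in haltere tsh, 995.6 and 1013 in wing nub and 833.5 and 1095 in wing tsh. It changed by -0.62 ± 0.11 against wing nub (adjusted p = 0.00283) and by -0.56 ± 0.11 against haltere tsh (adjusted p = 0.0042). Rack1, a scaffold protein on the small subunit, changed by -0.67 ± 0.11 against wing nub (adjusted p = 0.00145) and by -0.68 ± 0.11 against haltere tsh (adjusted p = 0.00104).

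Translation factors fell in haltere nub against both groups. Against wing nub 26 of 41 measured were called lower and 1 higher (median -0.44), beside 13.6% and 9.72% of all genes. Against haltere tsh 26 were called lower and 2 higher (median -0.50), beside 15% and 9.96%. Of these calls 17 of 27 and 17 of 28 held in all 8 fits without 1 library. eEF1alpha1, which brings aminoacyl tRNA to the ribosome, had 2510 and 2610 CPM in haltere nub, 5381 and 5343 in haltere tsh, 5191 and 5632 in wing nub and 4855 and 5636 in wing tsh. It changed by -1.08 ± 0.10 against wing nub (adjusted p = 2.56e-05), as did the other elongation subunits eEF1beta (-1.09 ± 0.11) and eEF1gamma (-1.07 ± 0.11). The factor called higher against wing nub was Thor, the 4E-BP inhibitor of initiation, named after its value was seen. Against haltere tsh the 2 called higher were Thor and eIF4EHP. Thor lost its call against haltere tsh without haltere nub replicate 2, where its change was 0.79. eIF4EHP lost its call without either haltere nub replicate, with changes of 0.40 without replicate 1 and 0.37 without replicate 2. It also lost that call without either haltere tsh replicate. Thor had 9.0 and 11.4 CPM in haltere nub against 3.9 and 4.2 in wing nub (1.33 ± 0.20, adjusted p = 0.000959).

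Most ribosome assembly factors were lower in haltere nub than in wing nub. Of 32 measured, 27 were called lower in haltere nub against wing nub (median -0.61), 5 lower against haltere tsh (median -0.13), and 18 higher in wing nub against wing tsh (median 0.40). The shares of all genes were 13.6% lower against wing nub, 15% lower against haltere tsh and 5.96% higher in wing nub against wing tsh. In all 8 fits without 1 library, 18 of the 27 calls against wing nub, 2 of the 5 against haltere tsh and 6 of the 18 in wing nub against wing tsh held. In wing nub against wing tsh 9 of the 18 were lost without wing nub replicate 1 and 9 without wing nub replicate 2, and 7 without wing tsh replicate 1. Against haltere tsh 3 of the 5 (Fib, nop5 and Nopp140) were lost without haltere nub replicate 1 or haltere tsh replicate 1. In haltere tsh against wing tsh none was called. Gar1, a protein of the particles that modify ribosomal RNA, had 15.0 and 15.7 CPM in haltere nub, 28.4 and 32.2 in haltere tsh, 49.0 and 46.2 in wing nub and 30.9 and 31.5 in wing tsh. Its change was -1.63 ± 0.10 in haltere nub against wing nub (adjusted p = 1.25e-06), -0.98 ± 0.10 against haltere tsh (adjusted p = 3.36e-05) and 0.61 ± 0.10 in wing nub against wing tsh (adjusted p = 0.00203). Fib, the fibrillarin methyltransferase, changed by -1.13 ± 0.11 in haltere nub against wing nub (adjusted p = 3.16e-05).

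**Figure D5:**
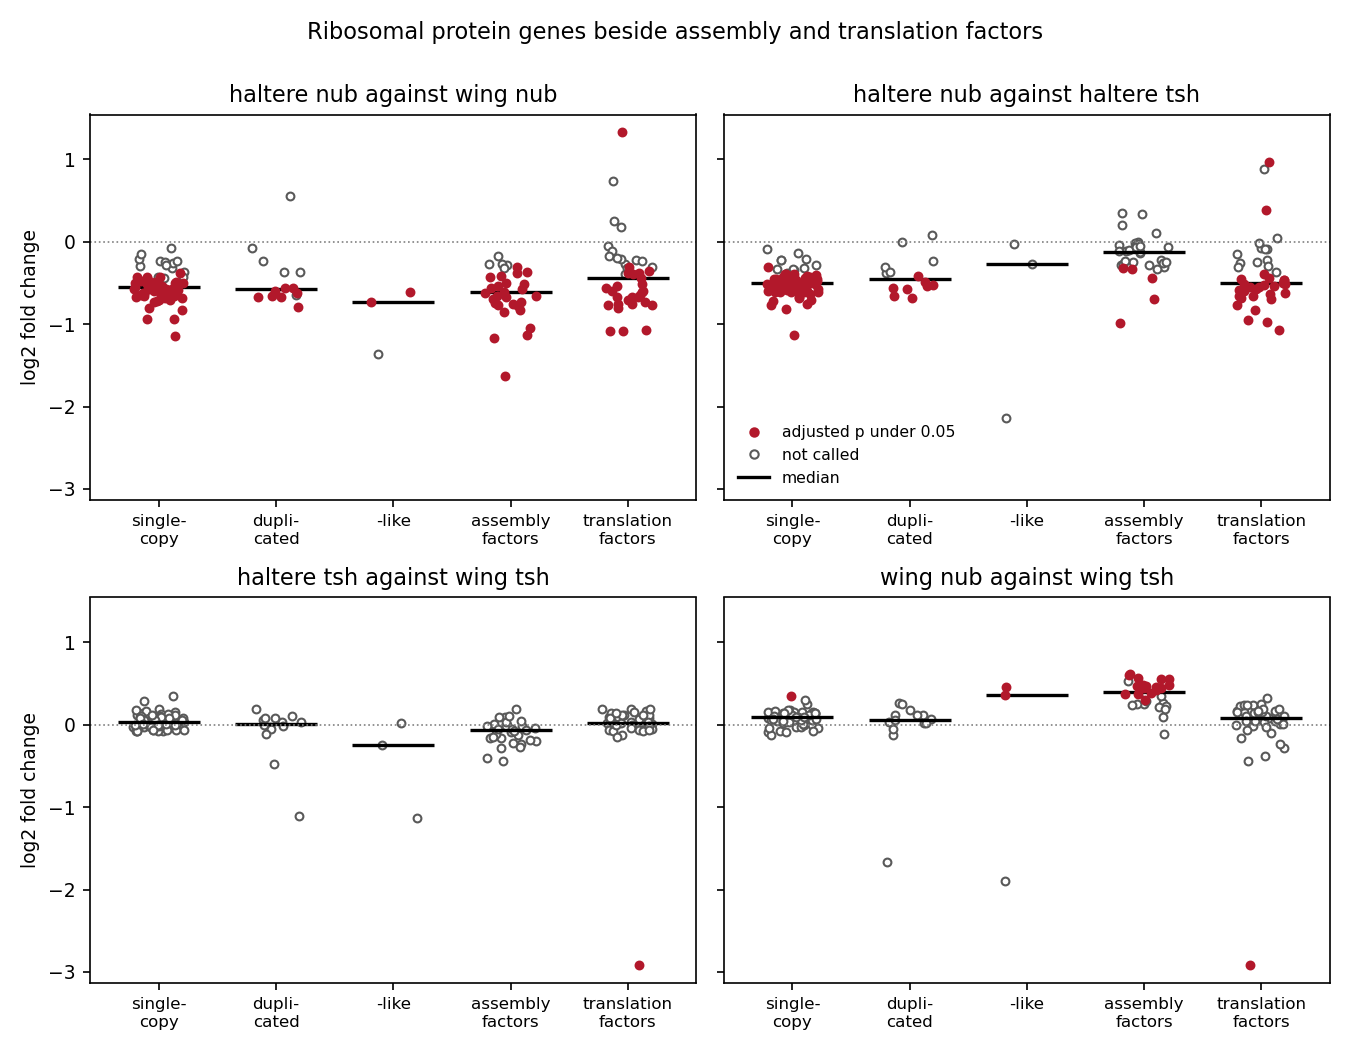
Log2 fold changes (vertical axis) of tested genes in 5 sets for 4 comparisons; each point is a gene, filled where the adjusted p is under 0.05, and the line is the median. The single-copy medians are -0.55 and -0.50 in the haltere nub comparisons and 0.04 and 0.09 in the comparisons with wing tsh, while assembly factors have medians of -0.61, -0.13, -0.06 and 0.40.

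Of 14 genes of RNA polymerases I and III, 5 were called lower and 1 higher in haltere nub against wing nub, 1 higher against haltere tsh and 4 higher in wing nub against wing tsh. The shares of all genes were 13.6% lower and 9.72% higher against wing nub, 9.96% higher against haltere tsh and 5.96% higher in wing nub against wing tsh. All 4 calls in wing nub against wing tsh were lost without wing nub replicate 1 (adjusted p = 0.0595 for Polr1A, 0.0789 for Polr1B, 0.241 for Polr1C and 0.0582 for Polr1E). In haltere nub against wing nub 2 of the 6 calls, Polr1A and Polr1B, held without any 1 library. Without haltere nub replicate 1 Polr1C, Polr1E and Polr3B lost their calls, and without wing nub replicate 1 these and Maf1 did. The polymerase I subunit Polr1B changed by -0.64 ± 0.11 in haltere nub against wing nub (adjusted p = 0.00195), and the gene called higher was Maf1, the repressor of polymerase III (0.43 ± 0.11, adjusted p = 0.0166). Maf1 lost that call without haltere nub replicate 2 (adjusted p = 0.176) or wing nub replicate 1 (0.161), and its call against haltere tsh without haltere nub replicate 2 (0.144) or haltere tsh replicate 1 (0.134).

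The 16 regulators had medians of 0.00 in haltere nub against wing nub and 0.01 against haltere tsh. Against wing nub 3 were called lower and 2 higher, beside 13.6% and 9.72% of all genes, and against haltere tsh 3 lower and 3 higher, beside 15% and 9.96%. None of the 6 calls against haltere tsh held in all 8 fits without 1 library, and 3 of the 5 against wing nub did. Myc, the growth regulator that activates ribosomal protein and assembly genes in flies, had 135 and 173 CPM in haltere nub, 207 and 213 in haltere tsh, 405 and 496 in wing nub and 295 and 268 in wing tsh. The haltere nub libraries were the lowest and the wing nub libraries the highest. Myc changed by -1.55 ± 0.13 in haltere nub against wing nub (adjusted p = 1.78e-05). That call held without any 1 library. Its call against haltere tsh (-0.45 ± 0.13, adjusted p = 0.0278) was lost without haltere nub replicate 1 (0.237), haltere tsh replicate 1 (0.118) or haltere tsh replicate 2 (0.124), and its call in wing nub against wing tsh (0.68 ± 0.13, adjusted p = 0.00477) without wing nub replicate 2 (0.0558). Xrp1, which in Drosophila is induced in Minute cells, had 1264 and 1166 CPM in haltere nub against 808 and 873 in wing nub (0.53 ± 0.10, adjusted p = 0.0035) and 867 and 932 in haltere tsh (0.43 ± 0.10, adjusted p = 0.00921). The call of Xrp1 against haltere tsh was lost without haltere nub replicate 1 (adjusted p = 0.099) or haltere tsh replicate 1 (0.11). These lists share the wing and haltere libraries with the ribosomal protein genes, and what links them was not tested.

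By the RefSeq table of the Release 6 assembly, the 92 genes lie on all the major chromosomes, with 14 on X, 19 on 2L, 21 on 2R, 14 on 3L, 23 on 3R and 1 on chromosome 4. Another annotated gene overlaps the span of 49 of them, and 28 hold snoRNA genes, 74 in all, a known feature of ribosomal protein introns. RpL39 overlaps RpL12, another of these genes. Of the genes named above, RpL23A, RpL23, RpL27, RpL30, RpL41, RpL10Ab, RpS10b, RpS28b, RpL24-like and RpLP0-like overlap another protein-coding gene. Since the strand setting of the counting is not given, the counts of overlapping genes are uncertain. Of the 40 tested members that overlap no annotated gene, 29 were called lower in haltere nub against wing nub (median -0.57) and 31 against haltere tsh (median -0.51).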

How the data were processed

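RNA-seq of sorted Drosophila imaginal disc cells gave 8 libraries in 4 groups of 2, taken from the labels. The other 28 of the 36 samples (17 ATAC-seq and 11 ChIP-seq) were not analysed here. TRIZOL gave the total RNA and Nugen Ovation Drosophila RNA-seq the libraries, per the labels' protocols. The authors deposited 1 table a library of raw counts for 17807 FlyBase IDs. HISAT2, Bowtie2, bcl2fastq, deepTools and the build dm6 appear in the submitters' processing notes without a stated step. Not given in the sources used here are the tool that counted reads, its strand setting and its treatment of reads with several matches.

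IDs were matched to symbols through a reference list of gene names (17710 matched, 97 not). RefSeq's gene table, joined by symbol, gave the coordinates. In R 4.3.3, edgeR 4.0.16 kept 11198 genes by filterByExpr and left out 6609, scaled libraries by TMM and fitted all 8 libraries together (4 residual degrees of freedom, common biological coefficient of variation 19.9%). CPM are scaled by those factors. P-values are Benjamini-Hochberg adjusted over all genes tested within a comparison. Copy ratios, log2 of the counts plus 0.5, were compared by exact permutation. The edgeR procedure was tested on simulated data. Replicates differed beyond sampling noise in every group (chi-square per gene of 9.00 to 31.4). Total counts per library ran from 15110163 to 96525031.

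The members, the companion lists and the tests were chosen with earlier results of these data known. Named were all duplicated and -like members, members left out by the filter, up to 10 single-copy members with the largest called change in each direction and comparison (or the 3 smallest p), the 3 highest and 3 lowest per kb, the 5 most even, and up to 4 called genes of a companion list. Alternatives were other scalings, DESeq2 1.42.0, other filters, thinning, span trends, a replicate block and leaving out each library. The values of 1 single-copy gene are not reported here; it stays in the counts and medians. Intervals and floors cover counting error only, and PCR copies are not told apart.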

Additional observations from a re-analysis of the deposited data

Results flagged for a closer look

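The change between haltere nub and wing nub differed from the change between haltere tsh and wing tsh, by a test of that difference, for 54 of the 86 ribosomal protein genes tested, all negative, with a median of -0.558 over the 86. Among single-copy genes named above the values were -1.28 for RpS21, -1.11 for RpLP2, -0.96 for RpL23A, -0.94 for RpS2, -0.83 for RpL13, -0.82 for RpS12, -0.78 for RpL35A, -0.76 for RpL27, -0.76 for RpL7A, -0.76 for RpS3A and -0.58 for RpL23. Among duplicated copies they were -0.78 for RpL34b, -0.74 for RpL34a, -0.71 for RpL37-1, -0.68 for RpS15Ab, -0.66 for RpS19a, -0.65 for RpS14a, -0.65 for RpS10b and -0.51 for RpS15Aa. The -like genes gave -0.62 for RpL24-like and -0.49 for RpLP0-like. Of all genes 8.1% were called negative and 7.32% positive. Of the 570 other short, abundant genes 138 (24.2%) were called negative and 13 positive, with a median of -0.26.

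RpS21, RpLP2, RpL23A, RpS2, RpL13, RpS12, RpL35A, RpL34b and RpS3A stayed called without any 1 library. The other 12 lost the call without at least 1 library. Their highest adjusted p was 0.0524 for RpL27, 0.0531 for RpL24-like, 0.0576 for RpL34a, 0.0634 for RpL7A, 0.0671 for RpS14a, 0.0702 for RpS19a, 0.0982 for RpL37-1, 0.101 for RpL23, 0.105 for RpS15Ab, 0.141 for RpLP0-like, 0.142 for RpS10b and 0.169 for RpS15Aa. Depth, at 92342738 to 96525031 counts in haltere nub and 15110163 to 17705451 in the other groups, cannot be told apart from the haltere nub group. With all libraries thinned to the smallest total, 53 of the 54 were called again.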

How the results depend on the processing

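Each group had 2 libraries, so the single library is the main limit. Leaving 1 out also moved the number of all genes called in every comparison. Over the 8 fits that leave out 1 library, the count of called genes ran from 27 to 77 in haltere nub against haltere tsh, from 12 to 82 in the interaction (median -0.7492 to -0.4154), from 0 to 47 in wing nub against wing tsh (median -0.0779 to 0.2705) and from 0 to 20 in haltere tsh against wing tsh (median -0.1259 to 0.2266). RpL30 in wing nub against wing tsh was -0.03 with all libraries and ran from -0.3176 to 0.3245 over these fits, positive without wing tsh replicate 2 or wing nub replicate 2. In wing nub against wing tsh 1 gene was called with only the compared libraries fitted and 5 with the span and level trends removed. That setting, added after the data were seen, called 1 in haltere tsh against wing tsh. Upper quartile scaling moved the median of all genes to 0.12 in haltere nub against haltere tsh and to 0.15 in the interaction, and the interaction median to -0.4168. The share of counts, with the 100 highest other genes out of the total, averaged 4.37% in haltere nub, 5.92% in haltere tsh, 6.14% in wing nub and 5.82% in wing tsh. Over members that overlap no other gene it averaged 1.27% in haltere nub, 1.81% in haltere tsh, 1.85% in wing nub and 1.74% in wing tsh. The other alternatives kept the direction, and counts within 1.5 times, in haltere nub against wing nub (62 to 78 genes), haltere nub against haltere tsh (62 to 78) and the interaction (43 to 65).

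The labels do not say whether same-numbered libraries belong together. Deviations of same-numbered libraries correlated by -0.28 to 0.10 over all genes and by -0.46 to 0.08 over the ribosomal protein genes. Such correlations cannot show whether the libraries were collected together. With a replicate block 63 genes were called in haltere nub against wing nub, 66 in haltere nub against haltere tsh, 3 in wing nub against wing tsh, 0 in haltere tsh against wing tsh (3 at an unadjusted p under 0.05) and 51 in the interaction.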
